A study of Mus musculus with 4 samples.

Results

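The gp130 cytokine pathway was followed through 8 genes: Osmr, Lifr, Cntfr and Il6st, which encode receptor subunits, the kinases Jak1 and Jak2, the transcription factor Stat3 and its inhibitor Socs3. They are 8 of the 22218 genes listed in at least 1 of 4 spatial transcriptomes of mouse brain organoids, and all 8 were listed in every section. The files list them as OSMR, LIFR, CNTFR, IL6ST, JAK1, JAK2, STAT3 and SOCS3. The genes were chosen by the levels of Osmr and Stat3, which were high in the section treated with ATRA, so the values of that section are given below as a description.

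Osm, Lif, Il6 and related cytokines bind receptor pairs that hold gp130, the product of Il6st, together with Osmr, Lifr or a further subunit. Receptor-bound Jak kinases then phosphorylate Stat3, which enters the nucleus, binds DNA and raises, among others, Socs3, whose product shuts the receptor complex down. In the developing brain this pathway is known for driving progenitors towards astrocytes, and in the mature brain for reactive gliosis. Phosphorylation was not measured here, so the values below concern RNA only.

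All organoids were grown from mouse embryonic stem cells of a single line, CARLIN/Cas9, which carries a lineage barcode and the Cas9 nuclease in every group. From day 9 until sectioning at 3 months the medium held 2% B27 supplement with vitamin A (the VitaminA group), or a retinoid instead. The retinoids were 1 µM ATRA, which activates all retinoic acid receptors, 1 µM BMS753, an agonist of receptor alpha, or BMS961 with BMS641 at 0.1 µM, agonists of receptors gamma and beta, so the dose of the pair differed from that of the other ligands. Each group is 1 section, in which several organoids may lie together, and no difference between groups could be tested. Ranges in parentheses run over the 4 quadrants of a section, or over the 16 pairs of quadrants for a ratio, and describe variation within sections alone.

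The sections held 365 to 593 spots, each a small area that may cover several cells, so fewer cells of a type and less RNA per cell cannot be told apart. The number of molecules behind a spot is unknown. The deposited values are a quantile-normalised signal, in which tied ranks at the bottom of a spot received small values in file order. A gene was counted as seen in a spot when it stood above this lowest class, and the median number of genes seen per spot was 3330 to 4659. Levels are the mean signal over spots as a share of the summed signal of the section, in ppm, and log2 ratios add 1 ppm to both levels. Across genes, which are not independent, detection was higher for genes of longer genomic span (Spearman correlation 0.799 to 0.837), so levels are compared between sections for 1 gene and not between genes. Over the sections, neuronal markers summed to 741 to 1328 ppm and astroglial markers to 131 to 219 ppm. These sums are of different genes, so they are not compared with each other and give no share of cells. In BMS961+BMS641 a list of 8 epithelial markers summed to 1616 ppm against 122 to 204 ppm elsewhere. Epcam at 921 ppm and Cdh1 at 502 ppm made up most of that sum. Trp63, at 142 ppm, and Perp, at 26.5 ppm, were also highest there. Krt5, at 0.362 ppm, and Krt8, at 18.7 ppm, were lower there than in any other section. Krt5 was at most 1.95 ppm in any section, and Krt8 had 19.0 ppm in ATRA. Krt14 and Krt18 lay within the range of the other sections.

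Osmr, the signalling subunit specific to oncostatin M and Il31 receptors, was seen nearly everywhere in the ATRA section and in a minority of spots elsewhere. Its level was 15.1 ppm (8.32 to 19.8) in VitaminA, 846 ppm (820.3 to 878) in ATRA, 33.0 ppm (26.1 to 41.0) in BMS753 and 20.1 ppm (18.0 to 22.5) in BMS961+BMS641. No quadrant of another section came near the lowest ATRA quadrant, while VitaminA and BMS961+BMS641 overlapped and BMS753 lay just above both. Over ATRA spots the signal of Osmr ran from 0 through a median of 173 to 2242, and in the other sections the median spot had 0.

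The share of spots with Osmr was 23.9% in VitaminA (132 of 552, exact 95% binomial interval 20.4 to 27.7), 98.1% in ATRA (582 of 593, 96.7 to 99.1), 32.2% in BMS753 (151 of 469, 28.0 to 36.6) and 37.5% in BMS961+BMS641 (137 of 365, 32.5 to 42.7). These intervals cover counting error over spots only, since the spots of a section are not replicates. The 11 ATRA spots without Osmr were shallow, with a median of 1648 genes seen against 3424 where it was seen. Of 19783 genes listed in all sections, 121 were seen in at least as large a share of ATRA spots, and 85 stood as far above their next highest section as Osmr did, by 60.6 percentage points.

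Stat3, which carries the cytokine signal to the nucleus, stood high in 2 sections. It stood at 30.5 ppm (25.9 to 36.0) in VitaminA, 676 ppm (612 to 760) in ATRA, 24.1 ppm (15.4 to 35.6) in BMS753 and 173 ppm (146 to 207) in BMS961+BMS641. The quadrants of ATRA lay above all others, those of BMS961+BMS641 lay between, and VitaminA and BMS753 overlapped. Stat3 was seen in 39.9% of VitaminA spots (35.7 to 44.1), 96.0% of ATRA spots (94.0 to 97.4), 29.6% of BMS753 spots (25.5 to 34.0) and 87.4% of BMS961+BMS641 spots (83.5 to 90.6, exact 95% binomial intervals). By share of spots the gap between ATRA and the pair of agonists was thus small, 8.56 points, while the levels differed by a log2 ratio of -1.96 (pair over ATRA).

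**Figure D1:**
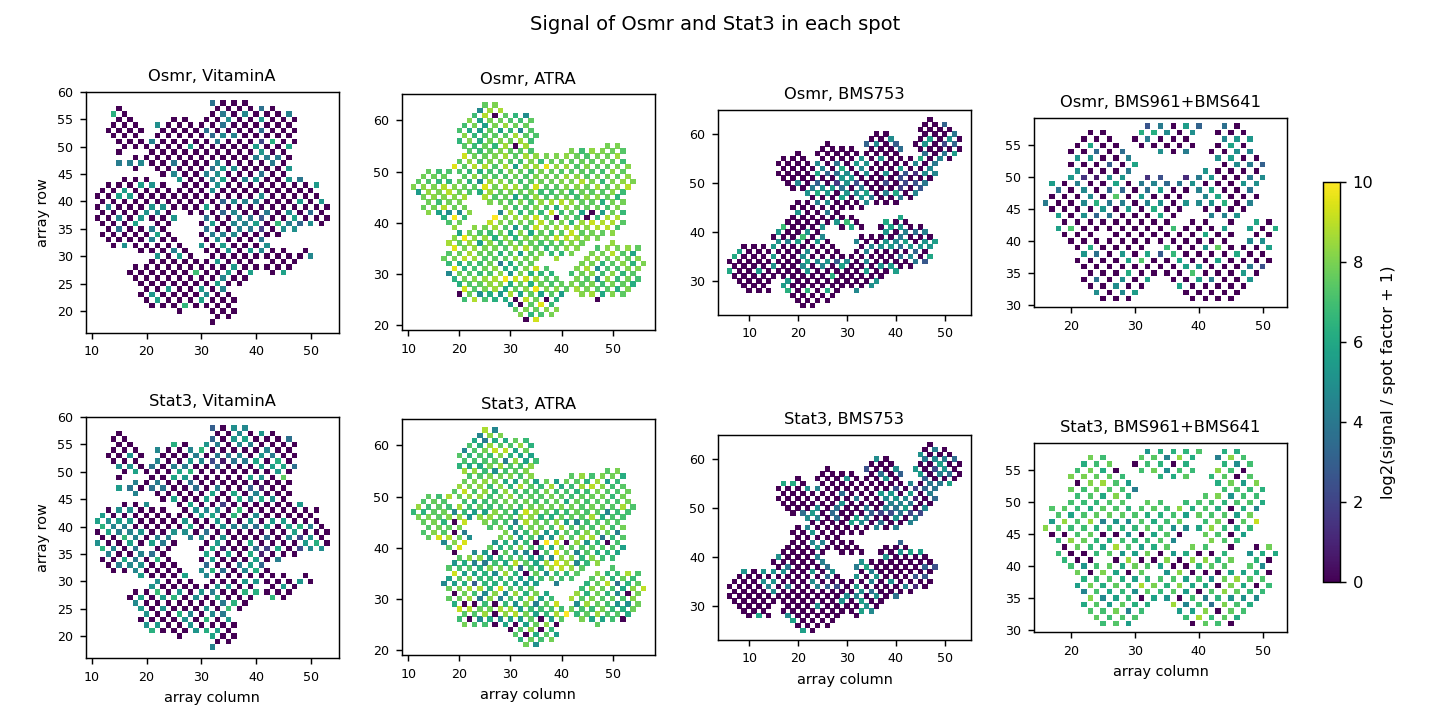
Signal of Osmr (top) and Stat3 (bottom) in each spot of the 4 sections, at array column and row, as log2 of the signal over the spot factor plus 1. Osmr fills the ATRA section, with 11 empty spots, and Stat3 fills ATRA and most of BMS961+BMS641, whereas most spots of VitaminA and BMS753 are dark for both.

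The spots of like depth gave the same picture of detection. Among spots with 3000 to 5000 genes seen (285, 270, 174 and 140 spots in the order VitaminA, ATRA, BMS753 and BMS961+BMS641), Osmr was seen in 16.1%, 100%, 31.0% and 34.3%. Stat3 was seen in 32.6%, 99.6%, 28.2% and 88.6% of these spots. The order of the sections was that found over all spots for both genes.

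Promoter sequences of 4 members are shown because Osmr and Stat3 were high together in ATRA while Lifr and Socs3 were low there. Each window holds 250 bases before and 50 bases after an annotated start site, read 5′ to 3′ on the gene's strand from RefSeq on build GRCm38.p6. The authors' processing used another build, so no position of the deposited data is implied. Capitals mark matches, on either strand, to a STAT palindrome (TTCNNNGAA, or the same ends with 4 bases between) or a nuclear receptor half-site (AGGTCA).
Osmr, chr15:6874264-6874563, minus strand: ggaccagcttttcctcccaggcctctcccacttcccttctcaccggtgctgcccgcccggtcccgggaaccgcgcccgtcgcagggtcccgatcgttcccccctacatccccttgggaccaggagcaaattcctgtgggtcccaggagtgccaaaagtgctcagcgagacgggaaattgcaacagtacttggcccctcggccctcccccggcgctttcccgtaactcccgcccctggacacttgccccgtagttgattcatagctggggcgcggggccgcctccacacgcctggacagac
Stat3, chr11:100939491-100939790, minus strand: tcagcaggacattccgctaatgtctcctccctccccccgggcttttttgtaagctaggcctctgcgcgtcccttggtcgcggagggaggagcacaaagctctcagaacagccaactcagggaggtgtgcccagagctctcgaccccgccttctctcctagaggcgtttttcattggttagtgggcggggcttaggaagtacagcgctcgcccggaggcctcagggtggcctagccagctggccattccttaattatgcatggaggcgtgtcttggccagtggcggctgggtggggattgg
Socs3, chr11:117969317-117969616, minus strand: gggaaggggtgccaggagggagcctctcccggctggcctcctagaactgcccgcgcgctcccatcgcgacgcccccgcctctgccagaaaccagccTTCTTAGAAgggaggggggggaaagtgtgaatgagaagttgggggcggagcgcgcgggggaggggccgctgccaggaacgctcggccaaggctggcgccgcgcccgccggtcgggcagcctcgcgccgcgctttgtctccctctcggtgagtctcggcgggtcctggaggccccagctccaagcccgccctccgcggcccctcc
Lifr, chr15:7129322-7129621, plus strand: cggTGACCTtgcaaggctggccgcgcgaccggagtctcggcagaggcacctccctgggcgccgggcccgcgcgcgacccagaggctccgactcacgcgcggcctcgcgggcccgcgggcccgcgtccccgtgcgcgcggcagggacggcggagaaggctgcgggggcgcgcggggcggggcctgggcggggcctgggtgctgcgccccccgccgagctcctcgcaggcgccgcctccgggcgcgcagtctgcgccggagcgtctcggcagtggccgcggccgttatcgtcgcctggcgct

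Over the 14 RefSeq windows of the 8 members, TTCNNNGAA matched in Socs3 alone, where TTCTTAGAA begins 154 bases before the start site. That motif occurs in 8.3% of 32851 promoter windows of the same length. The palindrome with 4 bases between occurs in 6.95% of windows and in none of the members. AGGTCA occurs in 16.3% of windows and, among the members, in 1 Lifr window, as TGACCT on the opposite strand beginning 247 bases before the start site. A direct repeat of the half-site with 5 bases between occurs in 3 windows, or 0.00913%, none of a member. The windows printed for Osmr and Stat3 hold no match, which says only that these letters are not in these windows.

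Lifr, the receptor subunit for Lif that also joins the receptors of ciliary neurotrophic factor and oncostatin M, was low where Osmr was high. Lifr stood at 118 ppm (112 to 127) in VitaminA, 28.7 ppm (21.4 to 35.5) in ATRA, 94.5 ppm (75.5 to 126) in BMS753 and 93.6 ppm (85.1 to 107) in BMS961+BMS641. Every ATRA quadrant lay below every quadrant of the other sections, which overlapped one another in part. It was seen in 82.6%, 39.8%, 62.3% and 78.1% of spots in that order.

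Cntfr, the subunit that binds ciliary neurotrophic factor, had its lowest level with the agonist pair. Its levels were 90.0 ppm (81.1 to 95.4) in VitaminA, 116 ppm (102 to 131) in ATRA, 97.0 ppm (78.2 to 123) in BMS753 and 56.7 ppm (53.1 to 60.1) in BMS961+BMS641. The quadrants of the agonist pair were below all others, and those of BMS753 overlapped both VitaminA and ATRA. By share of spots, however, Cntfr was lowest in BMS753, at 48.8%, against 64.5% in VitaminA, 66.1% in ATRA and 56.4% in BMS961+BMS641.

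Il6st, the gp130 subunit shared by the receptors of Osm, Lif and Il6, was seen in few spots of any section. It had 11.5 ppm (8.44 to 13.8) in VitaminA, 4.48 ppm (2.77 to 5.67) in ATRA, 6.16 ppm (2.30 to 10.4) in BMS753 and 5.11 ppm (2.37 to 6.61) in BMS961+BMS641. VitaminA quadrants lay above those of ATRA and the pair and overlapped those of BMS753. The share of spots with Il6st was 18.3%, 7.93%, 8.10% and 13.2%. Osmr was seen together with Il6st in 30, 47, 17 and 21 spots, which is 5.43%, 7.93%, 3.62% and 5.75% of a section, so most ATRA spots with Osmr had no gp130 signal above the lowest class.

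Jak1, the kinase most used by gp130 receptors, was highest in ATRA. Its levels were 82.7 ppm (72.0 to 91.4) in VitaminA, 178 ppm (152 to 194) in ATRA, 91.8 ppm (64.9 to 128) in BMS753 and 95.3 ppm (79.0 to 103) in BMS961+BMS641. The ATRA quadrants stood above all others and the remaining sections overlapped. By share of spots, however, Jak1 was seen in 71.8% in ATRA and in 75.6% with the agonist pair, against 62.1% in VitaminA and 53.5% in BMS753.

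Jak2, a kinase of many cytokine receptors, was lowest in ATRA. It stood at 11.5 ppm (8.42 to 14.9) in VitaminA, 3.56 ppm (2.91 to 4.46) in ATRA, 10.9 ppm (5.28 to 21.6) in BMS753 and 11.4 ppm (6.89 to 16.0) in BMS961+BMS641. ATRA quadrants were below those of every other section, and the others overlapped. It was seen in 17.4%, 8.09%, 14.1% and 21.4% of spots.

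Socs3, the feedback inhibitor that Stat3 induces, was low in all 3 ligand sections. It had 12.3 ppm (8.98 to 14.4) in VitaminA, 2.13 ppm (1.38 to 3.55) in ATRA, 4.41 ppm (2.24 to 5.90) in BMS753 and 2.39 ppm (2.13 to 2.62) in BMS961+BMS641. All VitaminA quadrants lay above all ligand quadrants. Socs3 was seen in 74 VitaminA spots (13.4%) and in 6, 13 and 10 spots of the ligand sections (1.01%, 2.77% and 2.74%). Of its level in those sections 76.6%, 58.6% and 78.7% lay in the lowest class, against 0.621% in VitaminA, so most of the ligand values came from tied bottom ranks. In spots of like depth it was seen in 11.2%, 1.48%, 1.72% and 0.714%.

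**Figure D2:**
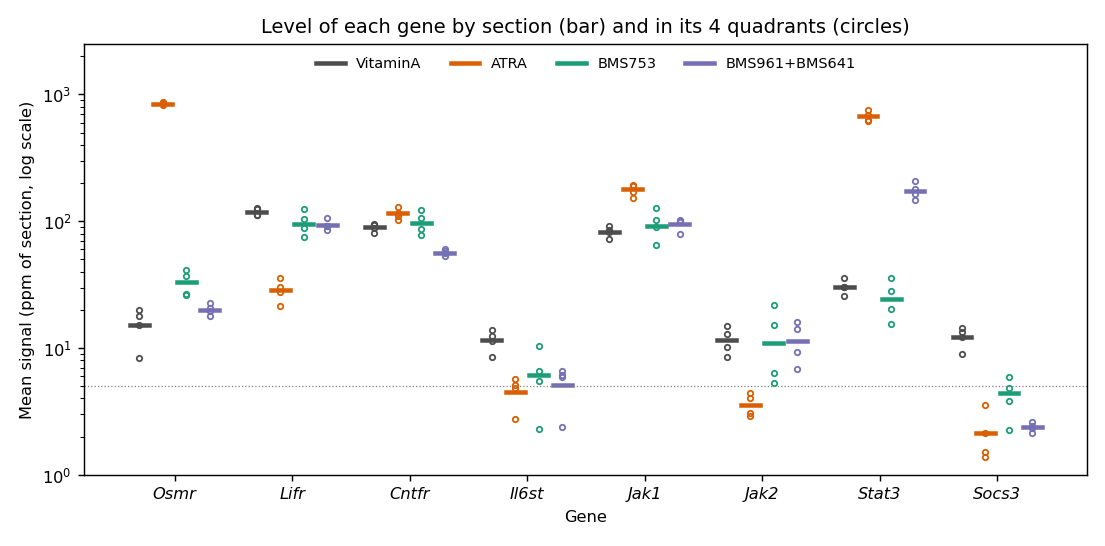
Level of each of the 8 genes in ppm of section signal (log axis). Bars give the section and circles its 4 quadrants, and the dotted line marks 5 ppm, below which in both sections no ratio was counted. Osmr at 846 ppm and Stat3 at 676 ppm in ATRA stand apart from every other value of the same gene, and Socs3 is below 5 ppm in all ligand sections.

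**Figure D3:**
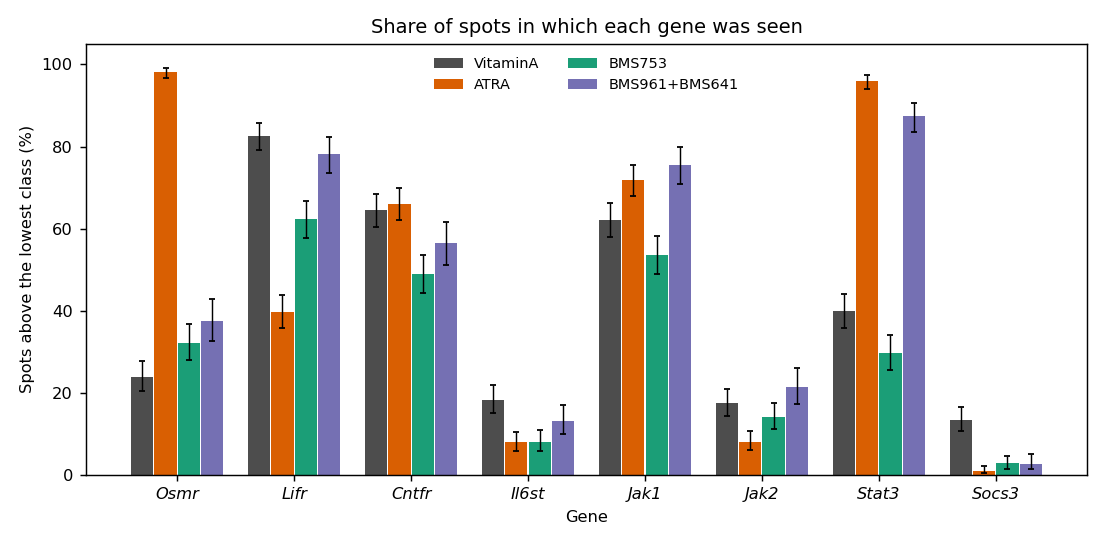
Share of spots in which each gene was seen above the lowest class, with exact 95% binomial intervals over spots. Osmr reaches 98.1% in ATRA alone, Stat3 reaches 96.0% in ATRA and 87.4% in BMS961+BMS641, and Socs3 is at 13.4% in VitaminA and at most 2.77% elsewhere.

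Set against VitaminA, ATRA gave a split within the group. The log2 ratio was 5.71 for Osmr (5.30 to 6.56), 4.42 for Stat3 (4.05 to 4.82) and 1.10 for Jak1 (0.73 to 1.42). It was -2.09 for Socs3, -2.01 for Lifr, -1.45 for Jak2 and -1.19 for Il6st, and 0.36 for Cntfr. Thus 3 of 8 members were at least 2-fold higher, where 8.6% of the 14794 genes compared were, and 4 of 8 were at least 2-fold lower, where 22.9% were. Both Osmr and Stat3 were over 16-fold higher, as were 0.94% of genes, and 38 genes had a ratio at least as high as that of Osmr and 92 as that of Stat3. Nothing is read from these counts, since the choice of genes used this contrast. The median log2 ratio of all genes was itself -0.33. Relative to that median Osmr was at 6.04, Stat3 at 4.76, Jak1 at 1.43 and Lifr at -1.68, and Il6st at -0.86 was within 2-fold. With the lowest class set to 0, Socs3 was at -3.18 in place of -2.09.

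**Figure D4:**
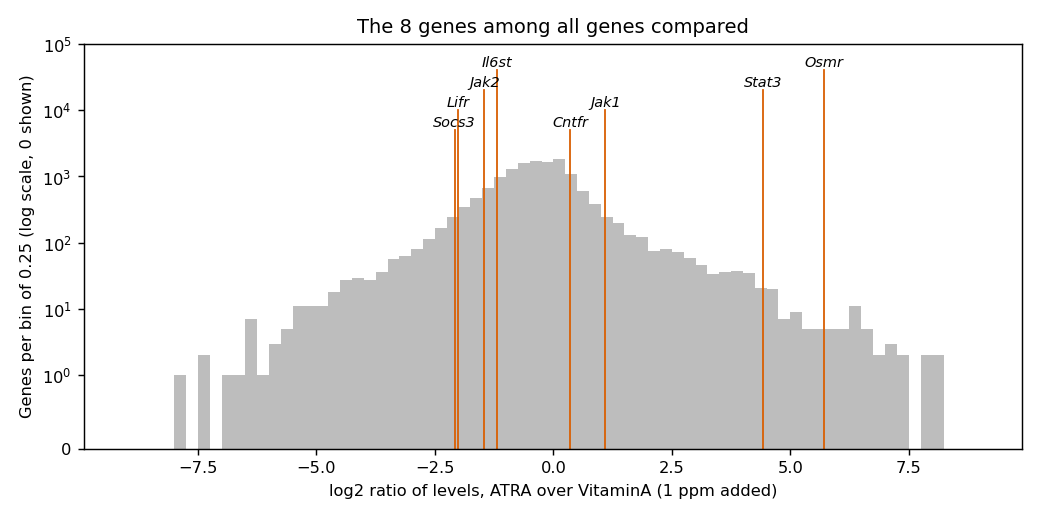
Distribution of the log2 ratio of levels, ATRA over VitaminA, over the 14794 genes compared, in bins of 0.25 with a log count axis, and the 8 members as vertical lines whose heights carry no value. Osmr at 5.71 and Stat3 at 4.42 lie in the sparse upper tail, while Lifr, Socs3, Jak2 and Il6st lie on the lower side among many genes.

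With the agonist of receptor alpha most members stood near their VitaminA levels. BMS753 over VitaminA, the log2 ratio was 1.07 for Osmr (0.38 to 2.17) and -1.29 for Socs3 (-2.25 to -0.53), and the other 6 members were within 2-fold. That is 1 of 8 higher, where 17.7% of 15676 genes were, and 1 of 8 lower, where 10% were. These shares are near the background. Socs3 was at -2.16 with the lowest class at 0. The median of all genes was 0.31, and relative to it Osmr, at 0.77, was within 2-fold and Il6st, at -1.11, was not. Stat3, at -0.33 (-1.17 to 0.45), was not higher in this section.

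With the agonists of receptors gamma and beta, 1 member stood at least 2-fold higher than in VitaminA. BMS961+BMS641 over VitaminA, Stat3 had a log2 ratio of 2.47 (1.99 to 2.95), with all 16 quadrant pairs positive, and 430 of 14959 genes had one at least as high. Socs3 was at -1.97 (-2.30 to -1.46) and Il6st at -1.03 (-2.13 to -0.31), and the other 5 members, Osmr at 0.39 among them, were within 2-fold. So 1 of 8 was higher where 10.2% of genes were, and 2 of 8 lower where 19.9% were. Setting the lowest class to 0 put Socs3 at -3.17. All genes had a median of -0.25, relative to which Stat3 was at 2.72 and Il6st at -0.77. Stat3 was thus high in this section while Osmr, seen in 37.5% of its spots, was within 2-fold of VitaminA, and Socs3 was low.

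The retinoid sections also differed among themselves, and these comparisons share sections with those above. BMS753 over ATRA, at the same dose, Osmr was at -4.64 (-5.02 to -4.29) and Stat3 at -4.75 (-5.53 to -4.07), while Lifr was at 1.69 and Jak2 at 1.38. Of 7 members compared, 2 were 2-fold higher and 2 lower, where 26.4% and 7.39% of 14902 genes were, around a median of 0.71. Relative to that median Lifr, at 0.97, and Jak2, at 0.67, were within 2-fold, and Jak1 was at -1.66. Socs3 was under 5 ppm in both sections and has no ratio here. Nothing is read from the counts, since the 2 lower members, Osmr and Stat3, were chosen for their ATRA levels.

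At differing doses, BMS961+BMS641 over ATRA stood at -5.33 for Osmr (-5.53 to -5.13), -1.96 for Stat3, -1.02 for Cntfr, 1.67 for Lifr and 1.44 for Jak2. The counts were 2 higher and 3 lower of 7 members, where 15.6% and 11.7% of 13732 genes were. Nothing is read from these counts either, since the lower members include Osmr and Stat3, chosen for their ATRA levels. BMS961+BMS641 over BMS753, again at differing doses, Stat3 alone passed 2-fold, at 2.79 (2.01 to 3.66), where 8.27% of 14973 genes were higher and 26.1% lower around a median of -0.64. The levels of Stat3 at 0.1 µM of the pair and at 1 µM of BMS753 are side by side here and are no comparison of the compounds at a matched dose.

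Among the spots of ATRA, Osmr and Stat3 did not vary together. With the factor of each spot divided out, their Spearman correlation over 593 spots was -0.06. With the signal as deposited it was 0.60, because the spot factor multiplies both genes. Both were seen in 559 spots, 94.3%, where the product of their separate shares is 94.2%. Over all pairs of members seen in at least 20% of spots the correlation lay between -0.06 and 0.14 in ATRA, -0.01 and 0.06 in VitaminA, -0.02 and 0.12 in BMS753, and -0.02 and 0.14 in BMS961+BMS641. Such values over sparse spots, which share a library, are no finding.

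Each of these genes had partners of its own within ATRA. Osmr varied over spots most like Xkr6 (Spearman 0.60), Vps35l (0.58), Srd5a1 (0.58), Abcb11 (0.56) and Plekhh2 (0.56). Stat3 varied most like Casp8 (0.67), Cyp19a1 (0.65), Nln (0.63), Togaram2 (0.59) and Plaa (0.56). Of 5968 genes seen in at least 20% of spots, 64 had a correlation of at least 0.3 with Osmr and 49 with Stat3, and none was in both sets. Each set was spread over 18 chromosomes, and its genes were seen in a median of 95.3% (Osmr) and 87.0% (Stat3) of ATRA spots. In the other 3 sections none of these genes reached 0.3 with the same member. For Osmr in all 3, and for Stat3 in VitaminA and BMS753, no gene at all reached it, the highest values being 0.19 to 0.29, so no difference between sections is read from this. In BMS961+BMS641, where Stat3 was seen in most spots, 39 genes reached 0.3 with it, led by Nol4 (0.43) and Ocln (0.42), whose correlations with Stat3 in ATRA were 0.14 and -0.02. The cut of 0.3 was chosen after the values were seen.

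**Figure D5:**
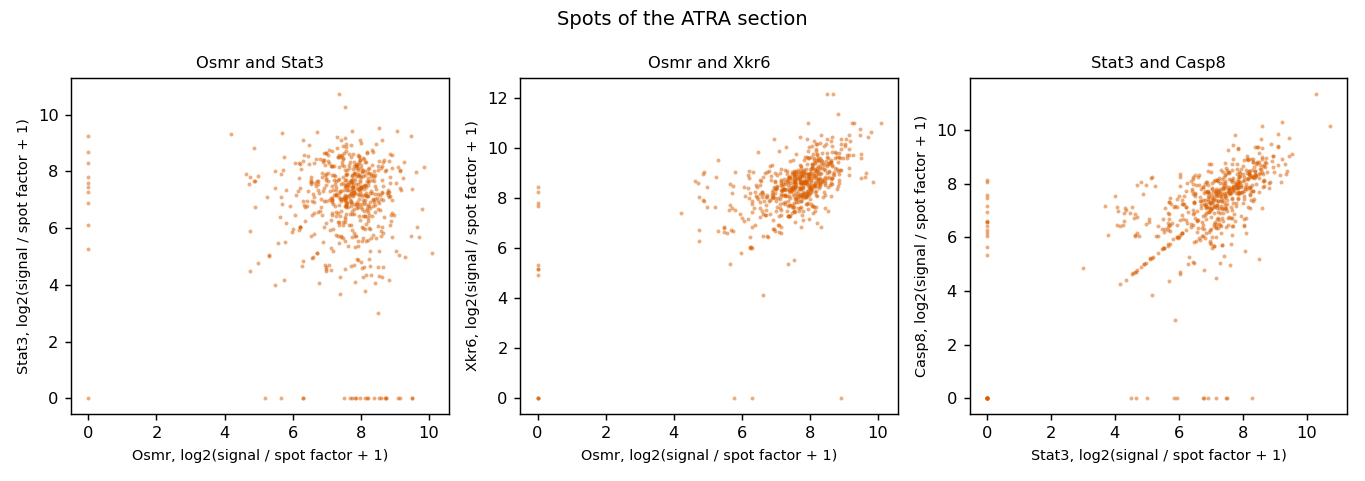
Signal over spot factor, as log2 of the value plus 1, in the 593 spots of ATRA, each point a spot. Osmr against Stat3 (left) shows no trend (Spearman -0.06), whereas Osmr rises with Xkr6 (0.60) and Stat3 with Casp8 (0.67).

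Across sections, the genes nearest to Osmr by the 3 log2 ratios against VitaminA were Lypd11, Slc22a29, Btn2a2, Tnfrsf14 and Abcb11, at Euclidean distances of 0.751 to 0.836 among 9129 genes, of which 9 lay within a distance of 1. They had log2 ratios of 5.03 to 6.14 in ATRA and were seen in 88.4% to 96.6% of its spots. Nearest to Stat3 were Frem1, Zmym6, Scamp5, Psmd1 and Cep250, at distances of 0.476 to 1.25. Frem1 was seen in 56.7%, 97.1%, 46.7% and 94.5% of spots in the order used above. The likeness of these genes to Osmr or Stat3 over sections follows from how they were chosen and is no further finding.

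The genes beside Osmr and Stat3 on their chromosomes were not high in ATRA. In the RefSeq annotation, among listed genes, Osmr lies on chromosome 15 between Rictor and Lifr, with Fyb and Egflam next to these, and the log2 ratios in ATRA over VitaminA were -0.69, -2.01, -1.10 and -0.62. Stat3 lies on chromosome 11 beside Stat5a and Stat5b on one side and Cavin1 and Atp6v0a1 on the other, with log2 ratios of -1.95, -2.28, -0.99 and -1.24. All 8 neighbours were lower in ATRA, as were 65% of all genes compared.

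Whether members differed between edge and interior spots depended on how the edge was drawn. Osmr in ATRA stood at 813 ppm at the edge and 858 ppm inside, and Stat3 at 608 and 699.8 ppm. In BMS961+BMS641 Stat3 had 182 ppm at the edge and 168 ppm inside. With every spot of fewer than 8 neighbours as edge, only Jak2 in BMS753 passed 2-fold among the 8 members, with 18.1 ppm against 6.97 ppm, a log2 ratio of 1.26. With fewer than 5 neighbours, which leaves 38 to 52 edge spots per section, Jak2 in BMS753 was at 0.81. At that narrower edge Il6st was at -1.76 in ATRA (0.655 against 4.61 ppm) and at 1.25 in BMS961+BMS641 (12.6 against 4.70 ppm). Jak2 was at -1.40 in BMS961+BMS641 and Socs3 at 1.21 in BMS753. By share of spots Il6st in ATRA went the other way, with 11.9% of 42 edge spots against 7.62% of the others. Socs3 in BMS753 was seen in only 4% of 50 edge spots.

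The cytokines of the pathway were seen in few spots. Osm, the ligand of Osmr, was seen in 1.45% of VitaminA, 0.506% of ATRA, 0.64% of BMS753 and 13.4% of BMS961+BMS641 spots, and 99.8% of its ATRA level of 9.01 ppm lay in the lowest class. Il6 was seen in 2.36%, 8.94%, 4.05% and 2.19% of spots, highest in ATRA. Lif was seen in 29.9%, 18.9%, 19.2% and 41.1%, and Il11 in 33.3%, 32.0%, 27.7% and 25.5%. Ctf1 and Ebi3 were seen in at most 2.17% of spots of any section. Ctf2 and Il27 had levels of 23.2 to 58.3 ppm, but 74.9% to 95.2% of those levels lay in the lowest class.

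Among other receptor genes, Il10rb, a subunit of the receptors of Il10 and related cytokines, was also highest in ATRA. It had 12.9 ppm (11.1 to 14.6) in VitaminA, 111 ppm (96.8 to 136) in ATRA, 29.3 ppm (24.3 to 35.1) in BMS753 and 7.91 ppm (4.22 to 13.6) in BMS961+BMS641, with ATRA above all other quadrants. Il31ra, which pairs with Osmr, had 31.5, 53.7, 24.7 and 44.2 ppm. Il12rb2, a subunit of the receptor of Il12, was highest with the agonist pair, at 100.4 ppm against 35.8, 21.3 and 30.3 ppm in VitaminA, ATRA and BMS753. Il6ra, which binds Il6, had 28.0, 19.9, 63.8 and 42.9 ppm. Il11ra1, Il27ra and Il12rb1 stayed between 1.03 and 6.17 ppm.

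Stat5a and Stat5b, the genes next to Stat3, were highest in VitaminA. Stat5b, a STAT of growth hormone and other cytokines, had 107.7 ppm (93.6 to 136) in VitaminA and 21.3, 48.5 and 24.7 ppm in ATRA, BMS753 and BMS961+BMS641. Stat5a had 26.8 ppm in VitaminA and 6.21, 9.28 and 4.79 ppm in the ligand sections. Of the inhibitors, Pias2 was at 178 ppm in ATRA and 33.5 ppm in VitaminA, and Pias1 at 24.2 against 121 ppm.

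Of 67 further pathway genes, 64 were listed, and Cntf, Clcf1 and Timp1 were not analysed here. In ATRA over VitaminA, 49 passed the filter on low levels, of which 3 were 2-fold higher (Il10rb, Pias2 and Il6) and 12 lower, with a median log2 ratio of -0.46 against -0.33 over all genes. Of 24 target genes listed in both sections, a list written from general knowledge, 17 passed the filter and 7, Gfap among them, did not. None of the 17 was 2-fold higher and 7 were lower, Hif1a most, at 8.76 against 66.1 ppm (log2 -2.78). With the lowest class at 0, 16 targets passed, of which 0 were higher and 8 lower. The pathway shares were 6.12% higher and 24.5% lower, against 8.6% and 22.9% of all genes. The lower targets were 41.2% of the 17 targets that passed the filter. In BMS753 over VitaminA, 8 of 51 (15.7%, 17.7% of all genes) were higher and 9 (17.6%, 10% of all genes) lower (median 0.09 against 0.31), with Ptpn1 (1.32), Ggta1 (1.24) and Il6ra (1.16) highest and Hif1a (-1.63), Stat5a (-1.44) and Pias1 (-1.20) lowest. In BMS961+BMS641 over VitaminA, 4 of 49 (8.16%, 10.2% of all genes) were higher and 10 (20.4%, 19.9% of all genes) lower (median -0.52 against -0.25), with Steap4 (1.57), Il12rb2 (1.46) and Lbp (1.26) highest and Hif1a (-2.58), Stat5a (-2.26) and Stat5b (-2.08) lowest. Gfap, an astrocyte gene that Stat3 regulates, was seen in 6.34%, 4.22%, 5.12% and 2.19% of spots and had at most 3.84 ppm.

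Between ligand sections, 11 of 47 pathway genes (23.4%, 26.4% of all genes) were 2-fold higher and 3 (6.38%, 7.39% of all genes) lower in BMS753 over ATRA, and the lowest were Pias2 (-2.56), Il10rb (-1.89) and Il31ra (-1.09). In BMS961+BMS641 over ATRA, 9 of 47 (19.1%, 15.6% of all genes) were higher and 5 (10.6%, 11.7% of all genes) lower, with Il12rb2 at 2.18, Cd44 at 1.53, Lbp at 1.47 and Il10rb at -3.65. In BMS961+BMS641 over BMS753, 3 of 47 (6.38%, 8.27% of all genes) were higher, Il12rb2 (1.70), Tyk2 (1.14) and Lbp (1.07), and 9 (19.1%, 26.1% of all genes) lower, led by Ptpn1 at -1.97. The quadrant pairs of Tyk2 ranged from -0.30 to 1.99.

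Astroglial and microglial markers were not highest in ATRA as a whole. The 12 astroglial markers summed to 217 ppm (193 to 233) in VitaminA, 183 ppm (173 to 192) in ATRA, 219 ppm (195 to 227) in BMS753 and 131 ppm (124 to 138) in BMS961+BMS641. One of them, Mlc1, had 78.3 ppm in ATRA against 2.26 to 8.01 ppm elsewhere. The 9 listed microglial and macrophage markers summed to 144, 126, 184 and 232 ppm, and the endothelial list to 1132, 1043, 658 and 779 ppm. The genes of these lists did not move together. In BMS961+BMS641 Cx3cr1 (102 ppm) and Adgre1 (75.0 ppm) were highest, while Ptprc, Tmem119 and Itgam had their lowest levels. By share of spots Tmem119 and Itgam were not lowest there. C1qa was highest in ATRA, with 6.39 ppm against 0.945 to 1.63 ppm elsewhere. It was seen in 11.1% of ATRA spots and in at most 3.56% of spots elsewhere. Flt1 had 761 ppm in VitaminA and 449 ppm in ATRA. Tek (170 ppm) and Emcn (131 ppm) were highest in ATRA, while Pecam1 and Kdr were lowest there. The epithelial list, which Epcam and Cdh1 dominate, stood at 1616 ppm in BMS961+BMS641, where Stat3 was higher than in VitaminA, and its part in that level was not tested.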

How the data were processed

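Polyadenylated RNA of 1 cryosection per group was captured on barcoded arrays, per the labels' protocols, and sequenced from both ends. The submitters' processing notes name mm9 as the build. Aligner, counting and spot filter were not given in the sources used here. What the authors deposited is a quantile-normalised signal, so spots of a section share 1 set of sorted values, scaled by a factor for each spot. In all but 1 spot of each section every gene at 0 stands, in file order, before every gene of the lowest class, which was therefore read as the end of the tie at the bottom. No counts were among the values used, so depth limits the precision by an unknown amount.

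Ratios used a pseudocount of 1 ppm and genes listed in both sections with 5 ppm or more in 1 of them. Quadrants were cut at the median x, then within each side at the median y. With 1 section per group no test was made. Correlations over spots used the signal over the spot factor. Edge spots had fewer than 8 of 8 grid neighbours. The members and lists were chosen with earlier results of these data known. The rule named the 8 members, all listed ligands and receptors, the 3 highest and 3 lowest pathway genes of a comparison at 20 ppm or more, the 5 genes nearest in pattern or correlated over spots, and 2 chromosomal neighbours on each side. Some genes that the rule names are not reported here. Other genes (Gfap, Mlc1, the epithelial, microglial and endothelial markers named, the partners in BMS961+BMS641, and values outside a gene's own comparison) were named after their values were seen. Alternatives changed the scaling, lowest class, spot factor, pseudocount, filter, summary and spots. The steps were tested on simulated data. The versions were Python 3.11.15 with numpy 2.4.6, with pandas 2.3.3, scipy 1.17.1 and matplotlib 3.10.9.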

Additional observations from a re-analysis of the deposited data

How the results depend on the processing

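No paired analysis was possible because each group has 1 section and the labels give no replicate numbers. Of 45 log2 ratios of members, 22 were past 2-fold, and 6 of these turned sign, all under the median within-spot rank, which in a spot without the gene is the rank of the tie and so fixes these values. They were, in percentage points, 1.98 for Il6st, 1.90 for Jak2 and 1.74 for Socs3 in ATRA over VitaminA, 1.98 for Socs3 in BMS753 over VitaminA, 0.0752 for Il6st in BMS961+BMS641 over VitaminA and -1.08 for Jak2 in BMS961+BMS641 over ATRA. In ATRA over VitaminA, Osmr was at 5.21 without scaling to ppm and 1.99 by the share of spots. Stat3 was at 3.97 without scaling, 4.76 when centred on all genes, 1.25 by the share of spots and 4.70 in spots of like depth, an alternative chosen after the data were seen. Leaving out each quadrant in turn gave 5.51 to 5.86 for Osmr and 4.35 to 4.51 for Stat3. None of 360 such values over all members moved by over 1 SD of its quadrant pairs. That outcome was largely fixed in advance, since leaving out 1 of 4 quadrants shifts a section mean by only part of the spread between quadrants. Of the 360 values, 19 values of 8 ratios had the other sign, all of ratios of at most 0.23 in size.

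Counts of pathway genes past 2-fold moved by over 1.5 times in some settings. Centring on all genes gave 5 higher in ATRA over VitaminA, 2 higher in BMS753 over VitaminA, 2 higher and 5 lower in BMS753 over ATRA, and 9 higher and 4 lower in BMS961+BMS641 over BMS753. A filter of 20 ppm, which tests fewer genes, gave 5 lower in ATRA, 5 higher and 4 lower in BMS753 and 5 lower in BMS961+BMS641, each over VitaminA. With the lowest class at 0, 4 were higher in BMS753 over VitaminA. Unknown depth limits every value, and Socs3, Il6st and Jak2 most, which were seen in at most 21.4% of spots.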

Other observations

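Of the 8 members, the median VitaminA spot showed 3, the median ATRA spot 4, the median BMS753 spot 2 and the median BMS961+BMS641 spot 4. In the same order, at least 4 members were seen in 41.3%, 62.7%, 27.3% and 56.4% of spots. Nothing is read from these counts, since Osmr and Stat3, chosen for their ATRA levels, were seen in 98.1% and 96.0% of ATRA spots. Stat3 was also seen in 87.4% of BMS961+BMS641 spots. Il6st and Lifr, which form the receptor of Lif, were seen together in 84, 33, 30 and 44 spots, and Stat3 together with Socs3 in 33, 6, 7 and 9 spots.

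All members were seen in deeper spots, as counted by genes seen per spot. In VitaminA the spots with Lifr had a median of 4876 genes and those without it 3677. In BMS753 the spots with Jak1 had a median of 4095 genes and those without it 2540. The 10 spots of BMS961+BMS641 with Socs3 had a median of 8154 genes and the other 355 a median of 4394.

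Neighbouring spots were only weakly alike. Moran's I, with the 8 grid neighbours, was 0.0389 for Osmr and 0.0497 for Stat3 in ATRA, where the median over genes seen in at least 20% of spots was 0.0309. Jak1 in BMS753 had the highest value of the 8 members, 0.187 against a median of 0.0399. Values of 0.11 to 0.155 for Socs3 in the ligand sections fell to at most 0.000952 with the lowest class at 0.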
